A study of Mus musculus with 8 samples.

Results

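The genes of fatty acid synthesis and desaturation were followed in bulk mRNA sequencing libraries from HFHC-fed mice given tranilast or no tranilast. The members are Srebf1, Acly, Acaca, Fasn, Scd1, Scd2, Elovl5, Elovl6, Fads1 and Fads2, found by their symbols, and they make up 10 of the 22063 genes in the deposited table. All 10 had enough reads to be tested. With tranilast, Scd2 fell by 22.3%, Elovl6 fell by 18.6%, Srebf1 fell by 13.1%, Fasn fell by 10.2%, Fads2 fell by 8.20% and Scd1 fell by 7.84%. No member was called higher, and Acly, Acaca, Elovl5 and Fads1 were not called in either direction. The size of these falls depended on how the libraries were scaled, and only Scd2 was called lower under every scaling and unit tried.

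Wild-type C57BL/6J mice were fed a high-fat, high-cholesterol (HFHC) diet, and the question was how oral tranilast, an anti-allergic drug, affects the liver. Sample labels give a control group of 4 libraries and a group of 4 libraries with control and tranilast, all of genotype WT and all marked as liver, while the HFHC diet shared by both groups is named in the series design and not in the labels. In the methods, young adult male mice received tranilast daily by mouth at a lower or a higher dose, or its vehicle sodium carboxymethylcellulose, over the later weeks of the diet. Which dose the sequenced animals received and whether each library came from a separate animal are not given in the sources used here. The p-values therefore measure the spread between these libraries, which may be technical.

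Cells build saturated fatty acids from citrate. Acly, ATP citrate lyase, cuts citrate to give cytosolic acetyl-CoA, Acaca, acetyl-CoA carboxylase, turns it into malonyl-CoA, and Fasn, fatty acid synthase, joins these units into palmitate. Elovl6 lengthens palmitate to stearate, and the stearoyl-CoA desaturases Scd1 and Scd2 put the first double bond into both. Fads2 and Fads1 are the delta-6 and delta-5 desaturases of polyunsaturated fatty acids, and Elovl5 lengthens the chains between these steps. Srebf1 encodes SREBP-1, the transcription factor that drives most of these genes in liver and is itself transcribed under control of the liver X receptors (LXR) and insulin.

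Promoter sequences are shown because the members share a regulator and because those of 2 members that fell, Fasn and Srebf1, can be set beside those of 2 that were not called, Acly and Elovl5. They are the 250 bases before a RefSeq transcription start in GRCm38.p6, written 5′ to 3′ on the strand of the gene, and capitals mark each match to a motif on either strand. The motifs searched were the sterol regulatory element TCACNCCAC, the E-box CACGTG, which reads the same on both strands, the NF-Y box CCAAT, which reads ATTGG on the other strand, and the GC box GGGCGG, which reads CCGCCC on the other strand.
Fasn, minus strand, chr11:120824548-120824797: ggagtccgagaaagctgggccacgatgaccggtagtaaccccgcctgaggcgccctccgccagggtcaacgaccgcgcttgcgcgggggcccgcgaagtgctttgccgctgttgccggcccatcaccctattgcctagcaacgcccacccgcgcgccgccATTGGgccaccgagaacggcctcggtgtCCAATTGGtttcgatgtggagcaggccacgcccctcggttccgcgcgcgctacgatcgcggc
Srebf1, first of 3 starts, minus strand, chr11:60222582-60222831: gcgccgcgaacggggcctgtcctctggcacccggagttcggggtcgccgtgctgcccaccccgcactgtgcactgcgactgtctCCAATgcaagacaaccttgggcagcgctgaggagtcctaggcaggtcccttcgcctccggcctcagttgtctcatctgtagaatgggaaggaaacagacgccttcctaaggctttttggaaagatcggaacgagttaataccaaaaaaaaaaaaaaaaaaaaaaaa
Acly, minus strand, chr11:100528001-100528250: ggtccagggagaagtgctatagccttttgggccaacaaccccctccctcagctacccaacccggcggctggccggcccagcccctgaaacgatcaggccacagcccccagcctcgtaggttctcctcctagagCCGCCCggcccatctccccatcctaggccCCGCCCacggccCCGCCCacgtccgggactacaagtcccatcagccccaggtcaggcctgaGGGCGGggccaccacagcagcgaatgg
Elovl5, plus strand, chr9:77917115-77917364: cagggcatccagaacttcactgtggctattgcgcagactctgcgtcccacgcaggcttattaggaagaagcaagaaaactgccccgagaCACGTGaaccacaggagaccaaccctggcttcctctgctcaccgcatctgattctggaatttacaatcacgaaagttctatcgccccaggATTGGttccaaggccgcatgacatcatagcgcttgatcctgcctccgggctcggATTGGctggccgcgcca

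Fasn held NF-Y boxes at 90, 62 and 59 bases before its start, and the latter pair overlapped as CCAATTGG. The first Srebf1 window held 1 NF-Y box, 166 bases before the start. Of the other Srebf1 windows, not printed, one held GC boxes at 36 and 14 bases before its start and another 9 bases into the transcript, and one held GC boxes at 65 and 6 bases and an NF-Y box at 30 bases before its start. Acly held GC boxes at 117, 88, 76 and 27 bases before its start and an NF-Y box 38 bases into the transcript, beyond the printed bases. Elovl5 held the only E-box of the windows matched, 161 bases before its start, and NF-Y boxes at 71 and 17. RefSeq windows were matched for 7 of the 10 members, as 9 windows that also take in the 50 bases after the start, and none was found for Scd1, Scd2 and Fads1. Over those 9 windows, 5 held an NF-Y box, against 37.4% of all 32851 promoters of this length, and 4 held a GC box, against 35.7%. The E-box stood in 1 of the 9, against 7.15%, and the sterol regulatory element in 0 of the 9, against 1.24%. Only exact matches to the letters given were counted, so 0 matches does not mean that the members lack such an element in another spelling.

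Library totals ran from 14585153 to 15618787 counts in the control group and from 12053036 to 14679386 with tranilast. The 4 control libraries had TMM factors between 0.956 and 0.965 and each tranilast library had 1.04, so the scaling factors separated the groups. TMM is the trimmed mean of M-values, which sets the libraries so that most genes do not change. Hepatocyte markers were nearly absent from all 8 libraries. The 8 hepatocyte markers found in the table summed to at most 1.91 CPM (counts relative to the library total) in any library, with Serpina1a, Ahsg and Cyp3a11 at 0 throughout and Alb at no more than 2 counts. The 12 macrophage markers summed to between 9058 and 9600 CPM in control and between 8842 and 9428 CPM with tranilast, led by Lyz2, and 7 of the 12 had more than 3 counts in every library. Of the Kupffer cell markers, which summed to at most 0.589 CPM, Clec4f, Vsig4 and Timd4 stood at 0. Adipocyte markers reached at most 0.274 CPM in sum, stellate cell and fibroblast markers 1.16, endothelial markers 0.747, T and B cell markers 0.409 and neutrophil markers 0.0755. The defining markers of the labelled tissue's main cell type were thus at or near 0 in both groups. The macrophage sums of the groups overlapped when taken relative to the library total. They were not scaled by TMM, whose factors separated the groups, so this overlap does not carry over to the TMM-scaled levels of the members. The part of cell makeup in the members' differences was not tested. In bulk libraries, fewer cells of a type and less RNA per cell cannot be told apart.

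Levels below are CPM scaled by TMM, and fold changes are log2, tranilast minus control, fitted in edgeR by quasi-likelihood, with p-values adjusted by the Benjamini-Hochberg method over 10770 genes. At an adjusted p under 0.05, 6 of the 10 members were lower and 0 higher, against 57% of all tested genes called in either direction, 28.8% lower and 28.2% higher. In 4 of the 10, Srebf1, Fasn, Scd2 and Fads2, the 2 groups did not overlap, against 49.8% of all tested genes. None reached the absolute log2 fold change of 1.5 that the study used as its threshold, which 1.11% of tested genes passed. The members' median was −0.12, beside 0.01 over all tested genes. The median absolute change of the members was 0.12, and that of all tested genes 0.21.

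**Figure D1:**
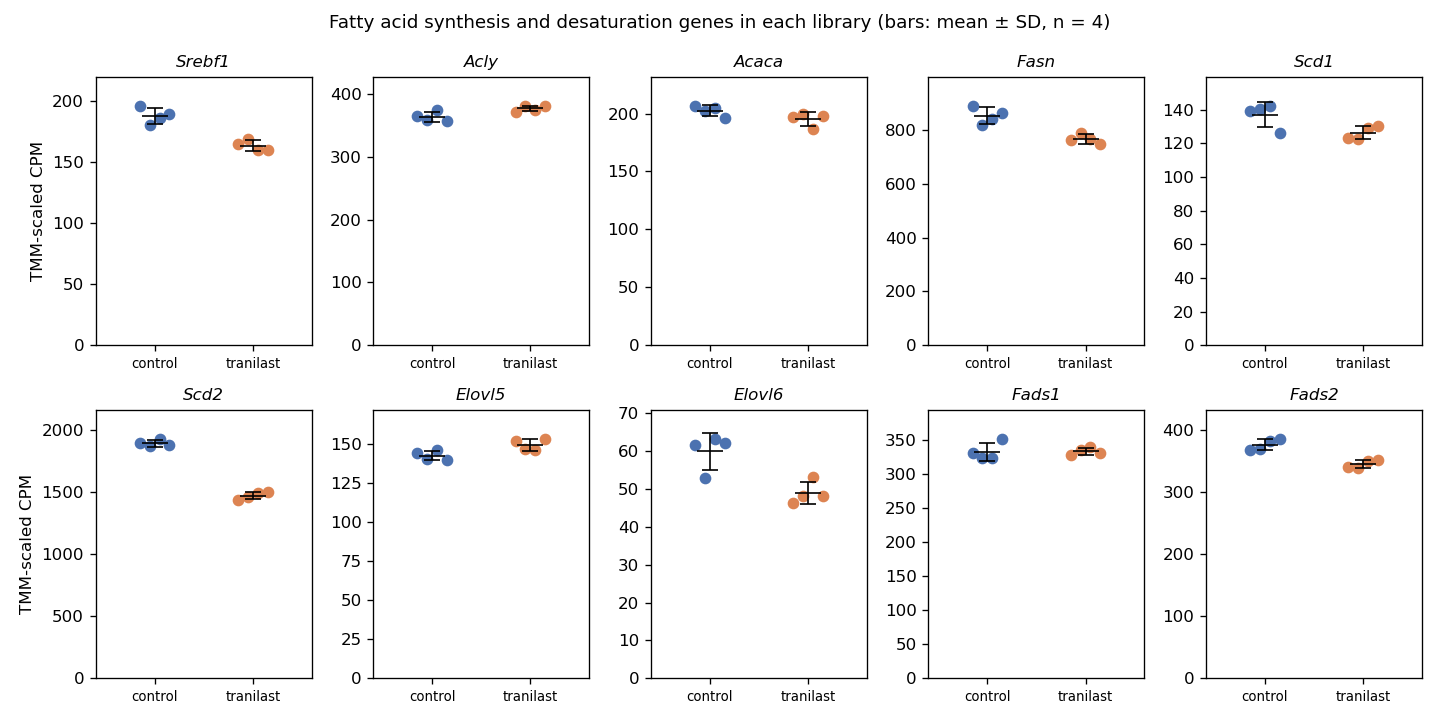
Each panel plots 1 member, with TMM-scaled CPM on a y axis from 0 and the 4 control and 4 tranilast libraries as points beside their mean ± SD. The groups stand apart for Srebf1, Fasn, Scd2 and Fads2 and share part of their range for the other 6 members.

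Srebf1 (ENSMUSG00000020538, chr11:60199089-60222581, minus strand, GRCm38) stood at 196.0, 180.6, 185.9 and 189.6 CPM in control replicates 1 to 4 and at 164.4, 169.3, 160.1 and 160.0 in tranilast replicates 1 to 4. None of the tranilast libraries reached the lowest control library. The log2 change was −0.20 ± 0.035 (SE, edgeR adjusted p = 8.36e-05), and the exact permutation p was 0.0286, the smallest that 4 against 4 libraries can give. The gene has several transcription starts, and the deposited value is 1 per gene, so its transcripts were not separated.

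Of the enzymes that make palmitate, Fasn alone was called. Fasn (ENSMUSG00000025153, chr11:120805846-120824547, minus strand) had 889.2, 820.1, 840.1 and 864.4 CPM in control and 764.3, 789.0, 764.5 and 747.9 with tranilast. The lowest control library, replicate 2, still lay above the highest tranilast library, also numbered 2. Its change was −0.16 ± 0.0272 (SE, edgeR adjusted p = 9.27e-05; exact permutation p = 0.0286).

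Acly (ENSMUSG00000020917, chr11:100476353-100528000, minus strand), which supplies the acetyl-CoA, read 364.8, 358.0, 373.8 and 357.0 CPM in control and 371.8, 380.9, 374.9 and 380.2 with tranilast. Control replicate 3 lay inside the tranilast range. The difference of 0.05 ± 0.0266 was not called (SE, edgeR adjusted p = 0.0999; exact permutation p = 0.0571). Acaca (ENSMUSG00000020532, chr11:84129672-84401651, plus strand), the malonyl-CoA step, read 206.5, 202.5, 204.8 and 195.7 CPM in control and 197.3, 199.6, 186.9 and 197.6 with tranilast, with the groups overlapping through control replicate 4. Its difference of −0.05 ± 0.0329 was not called either (SE, edgeR adjusted p = 0.201; exact permutation p = 0.114). Acaca's longest transcript shares 52.6% of its 50-base windows with Gm5182, so the assignment of its reads is uncertain.

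Scd2 (ENSMUSG00000025203, chr19:44293674-44306864, plus strand) was the most abundant member and the one with the steepest fall. Control libraries held 1902, 1873, 1932 and 1880 CPM, and tranilast libraries 1437, 1462, 1497 and 1502. Both groups were tight, with SDs of 26.5 and 30.4 CPM (n = 4 each), and the gap between the lowest control and the highest tranilast library was wider than either group's range. The change was −0.36 ± 0.0210 (SE, edgeR adjusted p = 6.54e-11; exact permutation p = 0.0286).

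Scd1 (ENSMUSG00000037071, chr19:44394455-44407879, minus strand), its neighbour on chromosome 19 and the main stearoyl-CoA desaturase of liver, was far lower in these libraries. It read 139.0, 140.6, 142.2 and 126.5 CPM in control and 123.2, 122.6, 129.0 and 130.4 with tranilast. Control replicate 4 lay inside the tranilast range, so the groups overlapped. The change of −0.12 ± 0.0415 passed the test across genes (SE, edgeR adjusted p = 0.0216) and missed the exact permutation test on the gene alone (p = 0.0857). The call was lost when control replicate 3, tranilast replicate 1 or tranilast replicate 2 was left out, with edgeR adjusted p = 0.0687, 0.0647 and 0.0742.

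Scd1 and Scd2 were also the only members whose deposited counts were not whole numbers, in all 8 libraries. How reads that match more than 1 gene were assigned is not given in the sources used here. The longest stretch of coding sequence common to both genes, shown because reads inside it cannot be assigned to either, spans 147 bases from coding position 523 of Scd1 and 532 of Scd2.
Scd1 and Scd2, shared coding stretch: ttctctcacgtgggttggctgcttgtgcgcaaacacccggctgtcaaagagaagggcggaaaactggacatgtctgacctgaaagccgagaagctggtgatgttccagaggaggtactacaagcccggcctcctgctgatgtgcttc

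In the longest annotated transcripts, 4.66% of the 50-base windows of Scd1 and 4.01% of those of Scd2 also occur in another gene, mostly in each other and in Scd3. The study's real-time PCR primers for Scd1 and Acaca are shown because one pair separates its gene from the copies and the other does not.
Scd1 forward primer: tcttccttatcattgccaacacca
Scd1 reverse primer: gcgttgagcaccagagtgtatcg
Acaca forward primer: ggccagtgctatgctgagat
Acaca reverse primer: agggtcaagtgctgctcca
The Scd1 pair matched 2 of the 3 annotated Scd1 transcripts and no other gene, while the Acaca pair matched 2 of the 9 Acaca transcripts and also Gm5182.

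Among the elongases, Elovl6 (ENSMUSG00000041220, chr3:129532355-129638495, plus strand) fell and Elovl5 did not. Elovl6 had 61.7, 52.7, 63.2 and 62.1 CPM in control and 46.2, 48.0, 53.1 and 48.1 with tranilast. Control replicate 2 stood below the other 3 and just under tranilast replicate 3, which was the only overlap. The change was −0.30 ± 0.0609 (SE, edgeR adjusted p = 0.000443; exact permutation p = 0.0571), and without that control library it was −0.35. Elovl6 was also the member with the fewest reads, between 651 and 945 counts in a library. Elovl5 (ENSMUSG00000032349, chr9:77917364-77984519, plus strand) read 144.0, 140.1, 145.9 and 139.8 CPM in control and 151.7, 146.4, 145.8 and 153.1 with tranilast, and control replicate 3 reached into the tranilast range. Its difference of 0.07 ± 0.0341 was not called (SE, edgeR adjusted p = 0.0989; exact permutation p = 0.0571).

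The neighbouring front-end desaturases also parted. Fads2 (ENSMUSG00000024665, chr19:10062765-10101746, minus strand) had 369.2, 369.9, 383.4 and 386.4 CPM in control and 341.1, 339.8, 351.5 and 352.7 with tranilast, with no overlap. The change was small and passed the test, at −0.12 ± 0.0279 (SE, edgeR adjusted p = 0.00104; exact permutation p = 0.0286). Fads1 (ENSMUSG00000010663, chr19:10182888-10196877, plus strand) had 331.4, 323.0, 322.9 and 351.7 CPM in control and 327.5, 335.8, 339.2 and 330.7 with tranilast, so that the tranilast libraries fell within the control range. Its difference was 0.00 ± 0.0311 (SE, edgeR adjusted p = 0.918; exact permutation p = 0.857).

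Because the scaling factors separated the groups, 4 ratios were also taken inside each library, where the scaling cancels. Scd2 and Scd1, Fads2 and Fads1, and Elovl6 and Elovl5 are each of the same enzyme kind, and Fasn and Acly both serve palmitate synthesis. All pairs but Scd2 to Scd1 set a member called lower against one not called. The pairs and their order were chosen with earlier results known, and the ratios use the same counts as the calls above, so they are not independent evidence of them. Scd2 counts were on average 13.8 times the Scd1 counts in control and 11.7 times with tranilast, a log2 difference of −0.25. The ratio of Elovl6 to Elovl5 dropped from 0.420 to 0.327, a log2 difference of −0.36. Fasn stood at 2.35 times Acly in control and 2.03 times with tranilast (log2 difference −0.21), and Fads2 at 1.14 and 1.04 times Fads1 (log2 difference −0.13). In all 4 ratios the tranilast libraries lay below the control libraries without overlap, with an exact permutation p of 0.0286 each and 0.0286 after Benjamini-Hochberg adjustment over the 4. A ratio does not say which of the 2 genes moved. In the deposited FPKM the same differences were −0.53 for Scd2 to Scd1, from 9.61 to 6.64 times, −0.45 for Elovl6 to Elovl5, −0.26 for Fasn to Acly and −0.13 for Fads2 to Fads1.

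**Figure D2:**
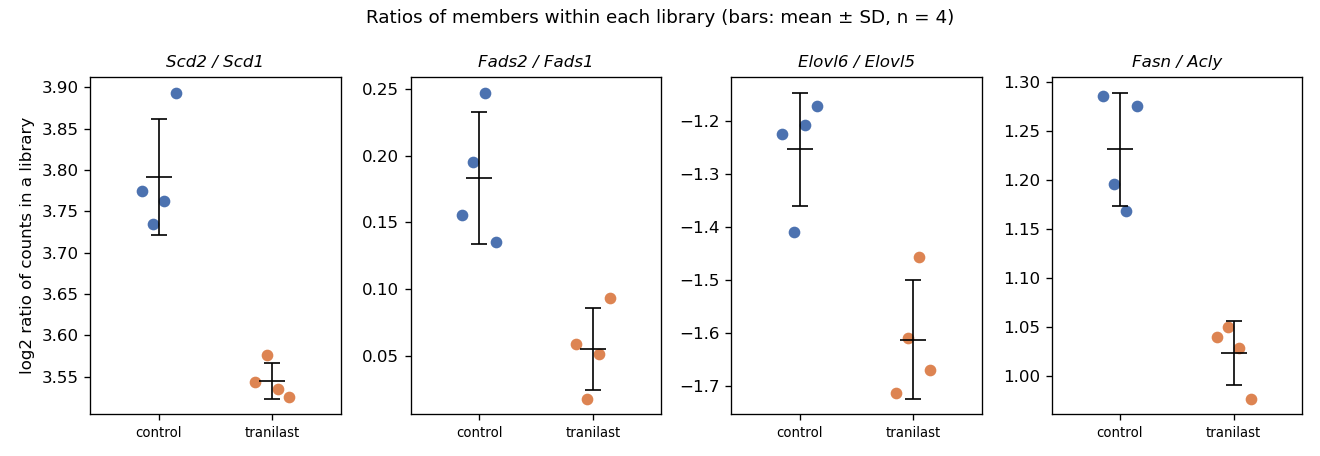
Log2 ratios of the counts of 2 members in the same library are plotted for the 4 control and the 4 tranilast libraries, with mean ± SD. In each panel, from Scd2 to Scd1 through to Fasn to Acly, all 4 tranilast points lie below all 4 control points.

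Library size alone and upper quartile factors moved all members upward by like amounts. In FPKM, where the transcript length also enters, all moved upward but unequally, as for Scd1 from −0.12 to 0.26 and Elovl6 from −0.30 to −0.25. With library size alone, the median log2 change of all tested genes was 0.12 in place of 0.01, with upper quartile factors it was 0.08, and in the deposited FPKM plus 0.1 it was 0.12. FPKM values are fragments per transcript length and library depth, and correct for length and depth alone. With library size alone, 3 members were lower (Scd2 at −0.25, Elovl6 at −0.18 and Srebf1 at −0.09) and 3 higher (Elovl5 at 0.18, Acly at 0.17 and Fads1 at 0.12), against 17.6% and 42.8% of all tested genes. With upper quartile factors, 4 were lower (Scd2, Elovl6, Srebf1 and Fasn) and 2 higher (Elovl5 at 0.14 and Acly at 0.12), against 21.6% and 36% of all. In a limma fit of the FPKM values, Scd2 at −0.28 was the only member called lower and Acly, Elovl5, Fads1 and Scd1 were higher, against 15.4% and 36.8% of all. Of all calls, 49.5% were higher with TMM, 62.6% with upper quartile factors, 70.9% with library size alone and 70.4% in FPKM. RLE size factors, DESeq2 and limma-voom left the same members called lower as TMM did.

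Relative to the median of all genes under the same setting, Scd2 was the lowest member with TMM, with library size alone and in FPKM. It was 0.37 below that median with TMM, 0.37 below it with library size alone and 0.39 below it in FPKM. Scd1 and Acaca turned sign between TMM and FPKM, and of these only Scd1 was called in either. The Scd1 change was −0.12 with TMM, −0.00 with library size alone and 0.26 in FPKM, where limma gave an adjusted p of 0.00404. The Acaca difference was −0.05, 0.07 and 0.17 in the same order, not called in any of them.

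**Figure D3:**
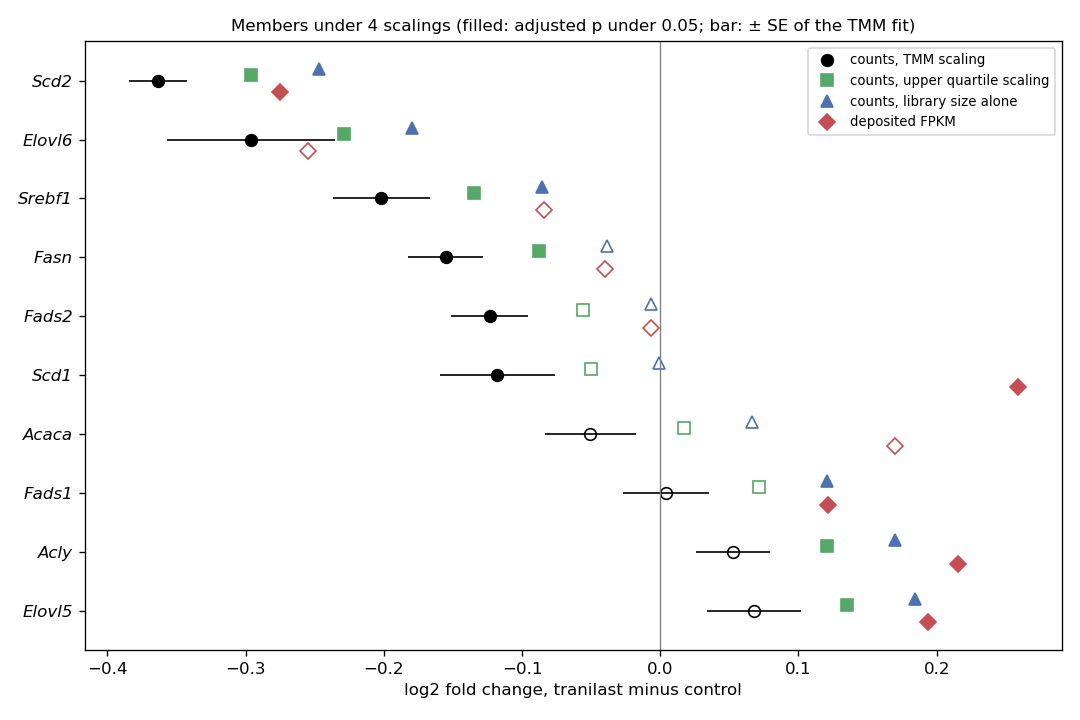
The log2 fold change of each member, tranilast minus control, is drawn for 3 scalings of the counts and for the deposited FPKM, with filled symbols for an adjusted p under 0.05 and a bar of ± SE for the TMM fit. Scd2 is on the left under all 4, Fasn, Fads2 and Srebf1 move toward 0, and the FPKM values of Scd1 and Acaca lie on the other side of 0 from their TMM values.

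The transcript length behind each FPKM value can be recovered as the count divided by the FPKM and by the library total. For Scd1 it was 3587, 3834, 3353 and 3535 bases in control and 3027, 2741, 3186 and 3001 with tranilast, with no overlap and a log2 difference of −0.26. Lengths did not overlap between the groups in 5.18% of the 10741 genes for which they could be computed, and 1.78% had a shift at least as large as that of Scd1. The Scd1 counts thus changed by −0.00 before any scaling beyond library size, and the rest of its FPKM difference equals the change in the length used. Scd1 has annotated transcripts of 4832, 750 and 329 bases. Whether the use of its transcripts changed was not tested.

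Among the other members, Fads2 had a length of 3150 bases in every library, which is the length of its longest annotated transcript. Acly alone of the rest showed a length without overlap, from 4244 to 4377 bases in control and from 4106 to 4217 with tranilast, a log2 difference of −0.05. Acaca ranged from 4731 to 6779 bases and Elovl6 from 4051 to 5362 with the groups overlapping, so that their FPKM values carry a spread that their counts do not. For Elovl6 the SD in control was 2.11 FPKM on a mean of 12.1, against 4.83 CPM on 59.9.

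**Figure D4:**
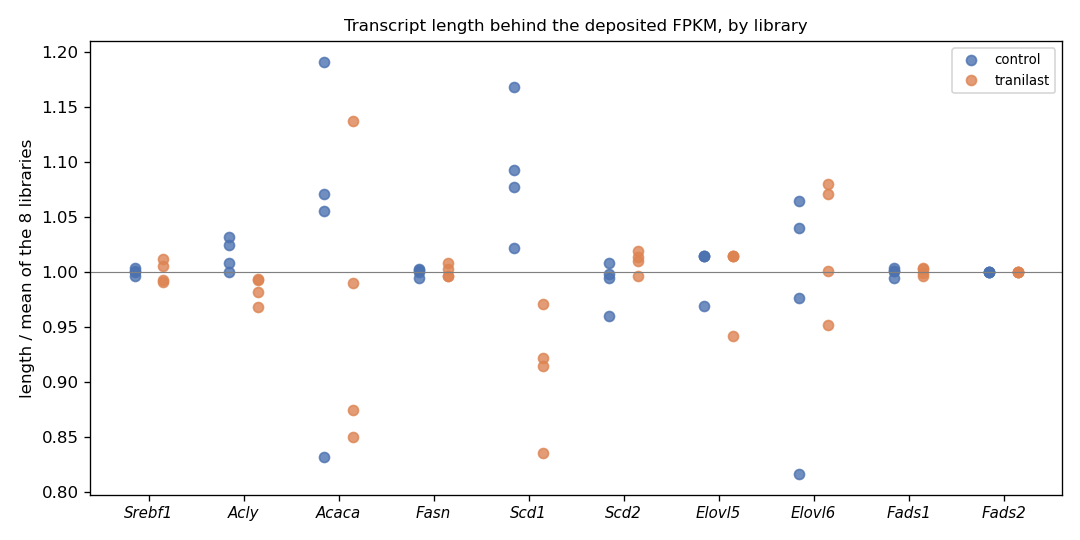
The transcript length behind the deposited FPKM of each member is plotted for each library, divided by the mean of the 8 libraries. The 4 tranilast points of Scd1 lie below its 4 control points, Fads2 lies at 1 throughout, and Acaca and Elovl6 scatter in both groups.

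Compared per length, in the deposited FPKM, Scd2 was the highest member in both groups at 354 ± 12.4 in control and 293 ± 7.99 with tranilast (SD, n = 4). Fads2 followed at 115 ± 2.77 and 114 ± 2.36. In control the order went on with Fasn at 93.4, Fads1 at 92.5, Acly at 80.9, Elovl5 at 49.7, Srebf1 at 45.6, Scd1 at 36.9, Acaca at 33.5 and Elovl6 at 12.1. Fasn and Fads1 did not differ beyond their spread in control, nor did Scd1 and Acaca. With tranilast the means of Fads1 at 101 and Acly at 94.0 stood above Fasn at 90.8, and that of Scd1 at 44.1 above Srebf1 at 43.0. The ranges of Acly (91.4 to 95.4) and Fasn (89.3 to 93.6) overlapped, as did those of Scd1 (42.1 to 46.7) and Srebf1 (41.8 to 44.9). Within each tranilast library, however, Acly stood above Fasn, with log2 ratios of Fasn to Acly from −0.079 to −0.012 in FPKM plus 0.1. Scd1 stood below Srebf1 in tranilast replicate 1 (42.2 and 42.5) and above it in the other tranilast libraries. The Scd1 values also carry the shift in transcript length given above. The 10 members summed to 914 ± 18.3 FPKM in control and 884 ± 14.3 with tranilast (SD, n = 4), with the groups overlapping (889 to 933 and 870 to 901). Scd2 made up between 38.4% and 39.8% of that sum in control libraries and between 32.6% and 33.7% with tranilast.

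Other genes of the pathway were called higher more often than lower. Of 72 tested genes in 8 lists drawn up around the members, 36 were higher and 14 lower, with a median of 0.13. That is 69.4% called in either direction, beside 57% of all tested genes. Under library size alone, 44 of these genes were called higher and 6 lower, beside 42.8% and 17.6% of all tested genes. In FPKM plus 0.1, 41 were higher and 4 lower, beside 36.8% and 15.4% of all. Of the listed genes in the table, 10 had fewer than 10 counts in every library, among them Mlxipl and Thrsp, both lipogenic regulators of liver, and Olah, Elovl2, Elovl3, Elovl4, Elovl7, Scd3 and Acsl6.

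**Figure D5:**
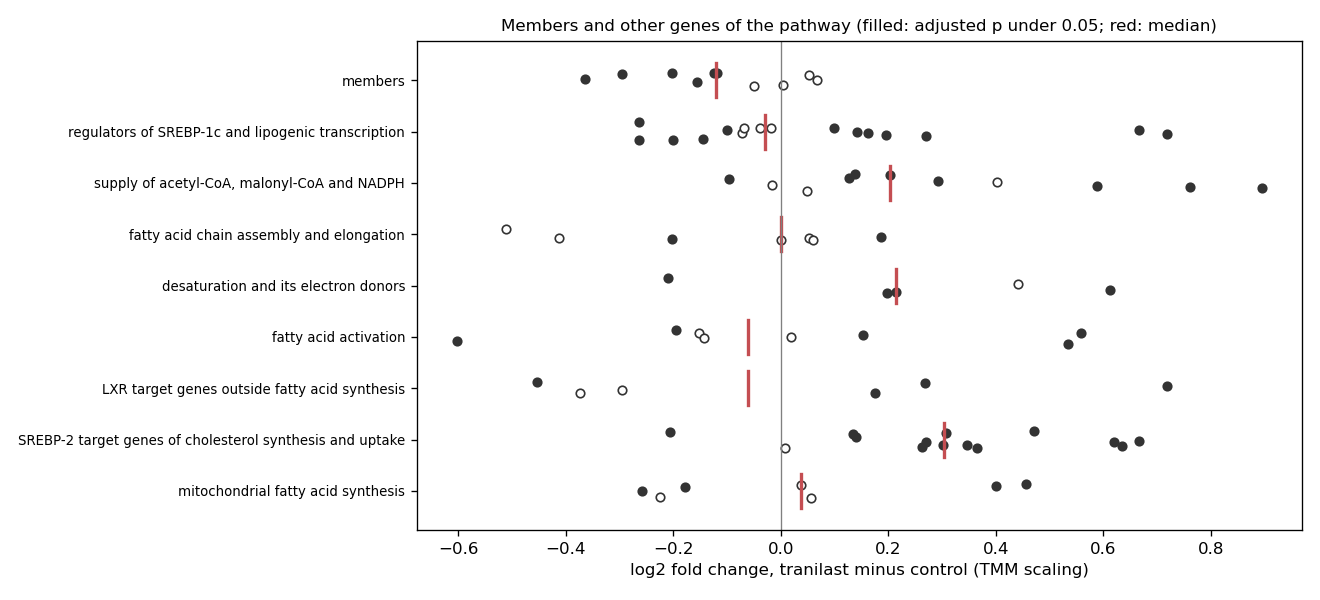
Each row plots the log2 fold changes, tranilast minus control under TMM scaling, of the members or of the tested genes of 1 list, filled for an adjusted p under 0.05, with the median as a red line. The members' median of −0.12 lies on the left, and the SREBP-2 target genes, with a median of 0.30, lie mostly on the right.

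Regulators of SREBP-1 and of lipogenic transcription split, with 7 of 16 higher, 5 lower and a median of −0.03. Insig1, which holds SREBP precursors in the endoplasmic reticulum, rose from 83.9 ± 3.24 to 133 ± 2.59 CPM (SD, n = 4; log2 change 0.67, edgeR adjusted p = 7.72e-11). Scap, the escort of SREBP to the Golgi, rose by 0.14 (edgeR adjusted p = 0.00386), and Mbtps1, the site-1 protease that cuts SREBP there, by 0.27 (edgeR adjusted p = 3.74e-06). Mbtps2, the site-2 protease that makes the next cut, named after its value was seen, fell by 0.26 (edgeR adjusted p = 8.65e-05). Nr1h3, which encodes LXR-alpha, was low, with 39, 22, 24 and 23 counts in control and 43, 44, 39 and 46 with tranilast, and its change was 0.72 (edgeR adjusted p = 0.0137). Control replicate 1 had nearly as many Nr1h3 reads as the tranilast libraries, and the other 3 control libraries had fewer. Nr1h2, LXR-beta, was not called at −0.02. Srebf2, the paralog of Srebf1 that drives cholesterol synthesis, was lower by −0.10 (edgeR adjusted p = 0.00849), and its sign turned to 0.016, not called, with library size alone. Usf1, an E-box binding factor of the Fasn promoter, fell by 0.26 (edgeR adjusted p = 0.000919).

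Genes that supply acetyl-CoA, malonyl-CoA and NADPH were higher in 7 of 11, lower in 1, with a median of 0.20. Acss2, which makes acetyl-CoA from acetate, rose from 11.4 ± 0.779 to 21.2 ± 1.10 CPM (SD, n = 4; log2 change 0.90, edgeR adjusted p = 8.37e-08). Idh1, an NADPH source, rose by 0.59 (edgeR adjusted p = 9.92e-10). Acacb, the mitochondrial acetyl-CoA carboxylase, and Mlycd, which breaks malonyl-CoA down, rose by 0.76 and 0.29, the former at only 1.26 CPM in control (edgeR adjusted p = 0.0184 and 0.0108). The Acacb call was lost without control replicate 1 (0.69), control replicate 2 (0.65) or tranilast replicate 4 (0.70) and in FPKM plus 1 (0.34).

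SREBP-2 target genes of cholesterol synthesis and uptake were higher in 12 of 14. Mvd rose by 0.63, Fdft1 by 0.62 and Dhcr7 by 0.47, all enzymes of sterol synthesis (edgeR adjusted p = 2.88e-08, 1.56e-08 and 4.44e-08). Fdps, another enzyme of the route, named after its value was seen, was not called at 0.01 (edgeR adjusted p = 0.855) and was called higher with library size alone, at 0.12. Scd2, Fasn and Srebf1 thus fell in the same libraries in which most of the sterol list rose. Of 6 tested LXR target genes outside fatty acid synthesis, 3 were higher and 1 lower, with a median of −0.06. Abcg1, a cholesterol exporter, rose by 0.27, Lpcat3, a phospholipid acyltransferase, by 0.17, and Mylip, a ubiquitin ligase, fell by 0.45 (edgeR adjusted p = 0.000802, 0.00910 and 0.000285). Nr1h3 counts here too, as Insig1 does among the sterol genes.

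Of the remaining elongation genes, 1 of 7 was higher and 1 lower. Hacd3, a dehydratase of the elongation cycle, rose by 0.19, and Elovl1, the elongase of very long chains, fell by 0.20 (edgeR adjusted p = 0.00111 and 0.000179). The Elovl1 call was lost with library size alone, at −0.085, and in FPKM plus 0.1, at −0.080. In the desaturation list without the members, 3 of 5 tested genes were higher and 1 lower. Cyb5a and Cyb5r3, cytochrome b5 and the reductase that feed electrons to the desaturases, rose by 0.20 and 0.22, Fads6 by 0.61, and the outer mitochondrial Cyb5b fell by 0.21 (edgeR adjusted p = 0.000758, 0.000364, 0.000326 and 3.32e-05). In FPKM plus 0.1, Cyb5b lost its call, at −0.093.

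Fatty acid activation genes were higher in 3 of 8 and lower in 2. Acsl5, an acyl-CoA synthetase, fell from 245 ± 1.47 to 161 ± 3.32 CPM (SD, n = 4; log2 change −0.60, edgeR adjusted p = 9.97e-12), beside −0.36 for Scd2. Acsl4, which activates arachidonate, fell by 0.19 (edgeR adjusted p = 0.000114), a call lost with library size alone, at −0.078, and in FPKM plus 0.1, at −0.078. The transporters Slc27a4 and Slc27a1 rose by 0.56 and 0.53 (edgeR adjusted p = 5.88e-08 and 2.65e-09). Mitochondrial fatty acid synthesis, a separate route, had 2 of 7 genes higher and 2 lower. Cbr4 and Oxsm rose by 0.46 and 0.40, and Lias and Ndufab1 fell by 0.26 and 0.18 (edgeR adjusted p = 0.00225, 0.00821, 0.0276 and 0.00507). The Lias and Ndufab1 calls were lost with upper quartile factors (−0.19 and −0.11), library size alone (−0.14 and −0.062) and FPKM plus 0.1 (−0.14 and −0.10). Lias also lost its call without control replicate 1 (−0.19), tranilast replicate 1 (−0.24), tranilast replicate 2 (−0.22) or tranilast replicate 3 (−0.22).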

How the data were processed

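Poly-A RNA of 8 libraries, 4 control and 4 tranilast, was sequenced in pairs of reads. Samples were grouped by their labels. The authors deposited 1 table with an estimated count of reads per gene, which is not always a whole number (between 92.7% and 93.9% of values were whole in a library), and an FPKM value normalized for transcript length and depth. The aligner, counter and genome build are not given in the sources used here. No per-library column was left unused (0 columns).

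Estimated counts were rounded, filtered with filterByExpr, scaled by TMM and compared in edgeR 4.0.16 (R 4.3.3) by its quasi-likelihood test, with p-values adjusted by Benjamini-Hochberg across 10770 genes and a threshold of 0.05. The design has no covariate. The biological coefficient of variation was 5.09%. The study named limma with an absolute log2 fold change of 1.5. Exact two-sided permutation tests of log2 CPM plus 0.1, and of 4 log2 ratios of counts plus 0.5, were run in Python 3.11.15 with scipy 1.17.1. Where a gene had a count of 0, its level could still be as high as 3 counts, or 0.192 to 0.249 CPM. Such limits cover counting error only.

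Alternatives were RLE, upper quartile and library size scaling, 2 other filters on low counts, limma-voom and limma on log2 FPKM plus 0.1 or plus 1 (limma 3.58.1), DESeq2 1.42.0, the replicate number as a block and each library left out. The edgeR procedure was tested on simulated data for 4 tranilast against 4 control libraries and 10706 genes, where it recovered 100 of 100 genes changed by 2 and 97 of 100 changed by 0.5 on the log2 scale, with 7 false calls. Few genes were changed there, as many up as down, at a fixed spread, and a shift in scaling between the groups was not simulated. The largest member change, −0.36 for Scd2, was smaller than any simulated one, so the recovery of changes of the members' size was not tested.

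The members and the gene lists were chosen with earlier results of these data known. Named genes were every member, up to 4 called genes of each list with the largest change, Nr1h3, Nr1h2, Mlxipl, Scap, Insig1, Srebf2 and list genes under 10 counts. Of the gene IDs, 21973 matched GENCODE M21 (GRCm38), from which coordinates and transcripts were taken, and promoters came from RefSeq. Primers came from the study's supplement. Some genes of the lists are counted but not reported by name here.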

Additional observations from a re-analysis of the deposited data

Results flagged for a closer look

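In a group of 4 libraries, a library was singled out where its distance to the nearest other was large against the whole range of the group. Chance flags about 1 in 20 groups, and 5 of 108 groups were flagged. Elovl6 was low in control replicate 2, at a log2 CPM of 5.72 beside 5.95 to 5.98 in the other control libraries. Nr1h3 was high in control replicate 1, at a log2 CPM of 1.52 beside 0.70 to 0.77, and Scap in control replicate 3, at 6.80 beside 6.69 to 6.70. The transcript length behind the FPKM of Elovl5 was 2657 bases in control replicate 1 and 2582 in tranilast replicate 2, against 2782 in the other 6 libraries.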

How the results depend on the processing

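Direction and side of the threshold were kept for Scd2 under all 18 alternatives run. Of all values under alternatives, 241 were the same as in the main fit, 48 weaker, 11 stronger, 9 reversed and 15 moved. For fold changes and ratios, the same means that direction and side of the threshold were kept. Counts of called genes were taken as the same where they were close to the main count, and as moved otherwise. With upper quartile factors, Acly (0.12) and Elovl5 (0.14) became called, Scd1 (−0.0503) and Fads2 (−0.0561) lost the call and Acaca turned to 0.0170. The members called higher were then 2 and the pathway genes called lower 9. With library size alone, Acly (0.17), Elovl5 (0.18) and Fads1 (0.12) became called, Fasn (−0.0387), Scd1 (−0.00105) and Fads2 (−0.00683) lost the call, and Acaca turned to 0.0661. That setting gave 3 members higher and 3 lower, 6 pathway genes lower, and 4613 genes higher and 1893 lower in all, beside 3039 and 3104 with TMM. In FPKM plus 0.1 and plus 1, Srebf1 (−0.0845 and −0.0828), Fasn (−0.0402 and −0.0398), Elovl6 (−0.25 and −0.24) and Fads2 (−0.00694 and −0.00689) lost the call. Acly (0.22 and 0.21), Elovl5 (0.19 and 0.19) and Fads1 (0.12 and 0.12) became called, Acaca turned to 0.17 and 0.17, and Scd1 turned to 0.26 and 0.25. Both gave 4 members higher and 1 lower and 4 pathway genes lower, with 1663 and 1660 genes lower in all. The shift in the median of all genes accompanies each of these settings, and the cause was not tested.

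Without single libraries, the log2 change ran from −0.16 to −0.10 for Scd1 and from −0.0105 to 0.0314 for Fads1, whose sign turned without control replicate 2, control replicate 3 or tranilast replicate 3. The ratio differences ran from −0.27 to −0.21 for Scd2 to Scd1, from −0.14 to −0.11 for Fads2 to Fads1, from −0.41 to −0.33 for Elovl6 to Elovl5 and from −0.23 to −0.19 for Fasn to Acly, all at an exact permutation p of 0.0571, the smallest that 3 against 4 libraries can give. Members called lower numbered 5 or 6.

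Same-numbered replicates correlated between −0.057 and 0.10 in their deviations from the group means, and 0 of 4 numbers matched best with their own, so the numbers were not taken as pairs. With the replicate block, 2957 genes were higher and 3052 lower, and the same 6 members were lower. Depth limits Nr1h3, Acacb and the list genes under 10 counts.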
